A study of Mus musculus with 6 samples.

Results

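Transcripts of 10 transcription factor genes that act on opposite sides of the epithelial to mesenchymal transition (EMT) were followed in the 4T1 line, which derives from a mammary tumour of a BALB/c mouse. The set was chosen by name and held 5 EMT factors (Zeb1, Zeb2, Snai1, Snai2 and Twist1) and 5 gatekeeper factors of the epithelial state (Ovol1, Ovol2, Grhl1, Grhl2 and Grhl3), out of 31017 rows of the count table. Poly(A) RNA came from 3 libraries labelled FGFR2 KO, of cells nucleofected with Cas9 and guides for FGFR2, and from 3 control libraries, of cells nucleofected with Cas9 and control guides. Cells of both groups were grown in collagen I gels (1.2 or 2.4 mg per ml, with no label saying which library had which) in medium with 10% serum, and were released with collagenase before lysis. The labels do not say where the guides cut, whether the KO cells were a pool or a clone, or whether each replicate was a culture of its own. The p-values therefore rest on the library-to-library spread, part or all of which may be technical. The comparison asks how the transcripts of these factors differ in collagen between cells given FGFR2 guides and cells given control guides.

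Zeb, Snai and Twist proteins repress epithelial genes. Zeb and Snai factors are zinc finger proteins that bind E-boxes of the Cdh1 (E-cadherin) promoter, whereas Twist1 is a basic helix-loop-helix protein that works as a dimer with E proteins. Ovol factors (zinc finger repressors) and Grhl factors (grainyhead-like activators of junction genes) hold cells in the epithelial state, and in breast and mammary cells Ovol2 and Grhl2 are known to repress Zeb1. In embryonic and carcinoma cells both sides restrain each other, and cells with some of each are known as hybrid or partial EMT states.

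The sequences just upstream of the start sites are shown first because the factors are defined by the letters they bind. RefSeq windows (build GRCm38.p6) covering 250 bases before a start were matched for 6 of the 10 factors (Zeb2, Snai1, Twist1, Ovol2, Grhl1 and Grhl3), at 10 starts, and were searched on both strands for the E-box bound by Snai and Zeb (CACCTG or CAGGTG), the Ovol core (CCGTTA or TAACGG) and the Grhl site (AACCGGTT, or with 1 free base AACCNGTT or AACNGGTT). The E-box was found in 2 of these 10 windows, those of Snai1 and Grhl3, the Ovol core in 0 and the relaxed Grhl site in 0. No window of Zeb1, Snai2, Ovol1 or Grhl2 was searched. The counts of 0 therefore do not cover Zeb1, the factor that Ovol2 and Grhl2 are known to repress. Zeb2 and Grhl1 each had more than 1 window and some Zeb2 windows overlap, so the 10 are not independent promoters. Over all 32851 windows, 17.2% held the E-box, 2.18% the Ovol core, 0.116% the strict and 1.79% the relaxed Grhl site. Shown are the windows of Grhl1 and Grhl3, the Grhl factors whose level differed, of Zeb2, the Zeb factor whose level differed, of Snai1, and of Epcam, an epithelial adhesion gene on the receiving side of both kinds of factor. Capitals mark the E-box, and positions are counted upstream from the start. The Grhl1 window shown is chr12:24572037-24572286 (plus strand), that of Grhl3 chr4:135573633-135573882 (minus), that of Zeb2 chr2:45117443-45117692 (minus), that of Snai1 chr2:167537945-167538194 (plus) and that of Epcam chr17:87635729-87635978 (plus).
Grhl1: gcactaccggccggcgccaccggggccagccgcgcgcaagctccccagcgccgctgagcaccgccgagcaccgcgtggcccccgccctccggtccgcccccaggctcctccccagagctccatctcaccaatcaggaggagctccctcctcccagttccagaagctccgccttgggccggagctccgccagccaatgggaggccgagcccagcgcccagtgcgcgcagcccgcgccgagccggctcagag
Grhl3: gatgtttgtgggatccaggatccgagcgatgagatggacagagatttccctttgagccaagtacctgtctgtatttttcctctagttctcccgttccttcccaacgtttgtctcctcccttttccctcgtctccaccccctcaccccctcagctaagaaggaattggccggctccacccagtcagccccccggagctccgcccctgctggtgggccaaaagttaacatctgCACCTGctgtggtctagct
Zeb2: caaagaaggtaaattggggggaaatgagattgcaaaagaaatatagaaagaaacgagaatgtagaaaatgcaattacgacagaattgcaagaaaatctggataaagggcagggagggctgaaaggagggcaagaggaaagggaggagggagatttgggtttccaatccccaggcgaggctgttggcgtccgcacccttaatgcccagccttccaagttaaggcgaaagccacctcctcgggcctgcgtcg
Snai1: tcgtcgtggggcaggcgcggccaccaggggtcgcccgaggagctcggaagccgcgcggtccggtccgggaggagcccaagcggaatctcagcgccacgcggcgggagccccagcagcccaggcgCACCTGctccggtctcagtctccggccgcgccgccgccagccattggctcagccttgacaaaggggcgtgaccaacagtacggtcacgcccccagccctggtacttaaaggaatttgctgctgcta
Epcam: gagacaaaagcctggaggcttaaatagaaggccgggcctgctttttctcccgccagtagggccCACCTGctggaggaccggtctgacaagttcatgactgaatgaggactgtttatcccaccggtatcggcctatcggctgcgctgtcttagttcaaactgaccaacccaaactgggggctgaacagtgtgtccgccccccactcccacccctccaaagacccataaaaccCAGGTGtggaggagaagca
The E-box lay 19 to 14 bases before the start of Grhl3 and 126 to 121 bases before that of Snai1. Epcam had 2, at 187 to 182 and at 19 to 14 bases, and its window held 0 Ovol cores and 0 Grhl sites, strict or relaxed. A match describes letters in the window, and whether a factor binds there was not measured.

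The libraries held 18635037, 19545981 and 20171309 counts (KO replicates 1 to 3) and 18402522, 20447719 and 15531790 counts (control replicates 1 to 3). Levels are given in CPM, counts scaled to a common library total. Fgfr2 itself stood at 101, 81.2 and 95.2 CPM in the KO libraries and at 96.9, 95.9 and 106 CPM in the control libraries, and it did not pass the test (edgeR adjusted p = 0.113, log2 fold change -0.11, SE 0.056), so the transcript level does not check the label. Epithelial markers were expressed in both groups and summed to 4963 to 5080 CPM in KO and 4949 to 5066 CPM in control libraries, with Krt5 at 0 counts. Of 7 tested, 2 rose (Krt14 and Cdh1) and 5 fell (Krt8, Krt18, Krt19, Krt7 and Epcam), against 27.1% and 27.5% of all tested genes. Without Krt14 the sum was 4017 to 4102 CPM in KO and 4888 to 5006 CPM in control libraries. Of 7 fibroblast markers Lum, Thy1 and Col3a1 were at 0, and the summed level was 37.9 to 44.4 CPM in KO and 35.8 to 37.9 CPM in control libraries, nearly all of it Pdgfra. Without Pdgfra it was 0.868 to 1.24 CPM in KO and 0 to 0.164 CPM in control libraries, with Dcn at 11, 10 and 12 counts in KO and 2, 0 and 0 counts in control libraries, and Pdgfrb at 8, 6 and 12 counts in KO and 0, 0 and 2 counts in control libraries. Leukocyte markers summed to 5.99 to 8.64 CPM in KO and 13.9 to 15.9 CPM in control libraries, most of it Cd68, with Adgre1 and Cd3e at 0. Endothelial markers summed to 0.153 to 0.588 CPM in KO and 0.0492 to 0.258 CPM in control libraries, with Kdr, Tek and Emcn at 0. The 12 genes of the dissociation response summed to 3713 to 4004 CPM in KO and 4454 to 4696 CPM in control libraries. They had no common direction: of 11 tested, 5 rose and 6 fell, against 27.1% and 27.5% of all tested genes. The part of these markers in the results was not tested.

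Among the gatekeepers, Grhl1, Ovol1 and Grhl3 were higher in the KO libraries, by 17.1-fold, 3.30-fold and 2.75-fold. Among the EMT factors, Zeb2 fell by 24.2% and Twist1 fell by 18.1%. The factor that was most abundant on the gatekeeper side in control cells, Grhl2, and the EMT factor Snai1 did not pass the test, and neither did Ovol2 and Zeb1. Snai2 was practically not transcribed in either group. In counts of calls, 3 of 5 gatekeepers rose and 0 fell, and of the 4 EMT factors that could be tested 0 rose and 2 fell. Over all 12158 tested genes 27.1% rose and 27.5% fell, and the share of factors called in either direction (5 of 9) was close to the 54.6% called over all tested genes, so the number of calls does not set these factors apart. In bulk RNA, fewer cells that express a gene and less RNA per cell cannot be told apart.

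**Figure D1:**
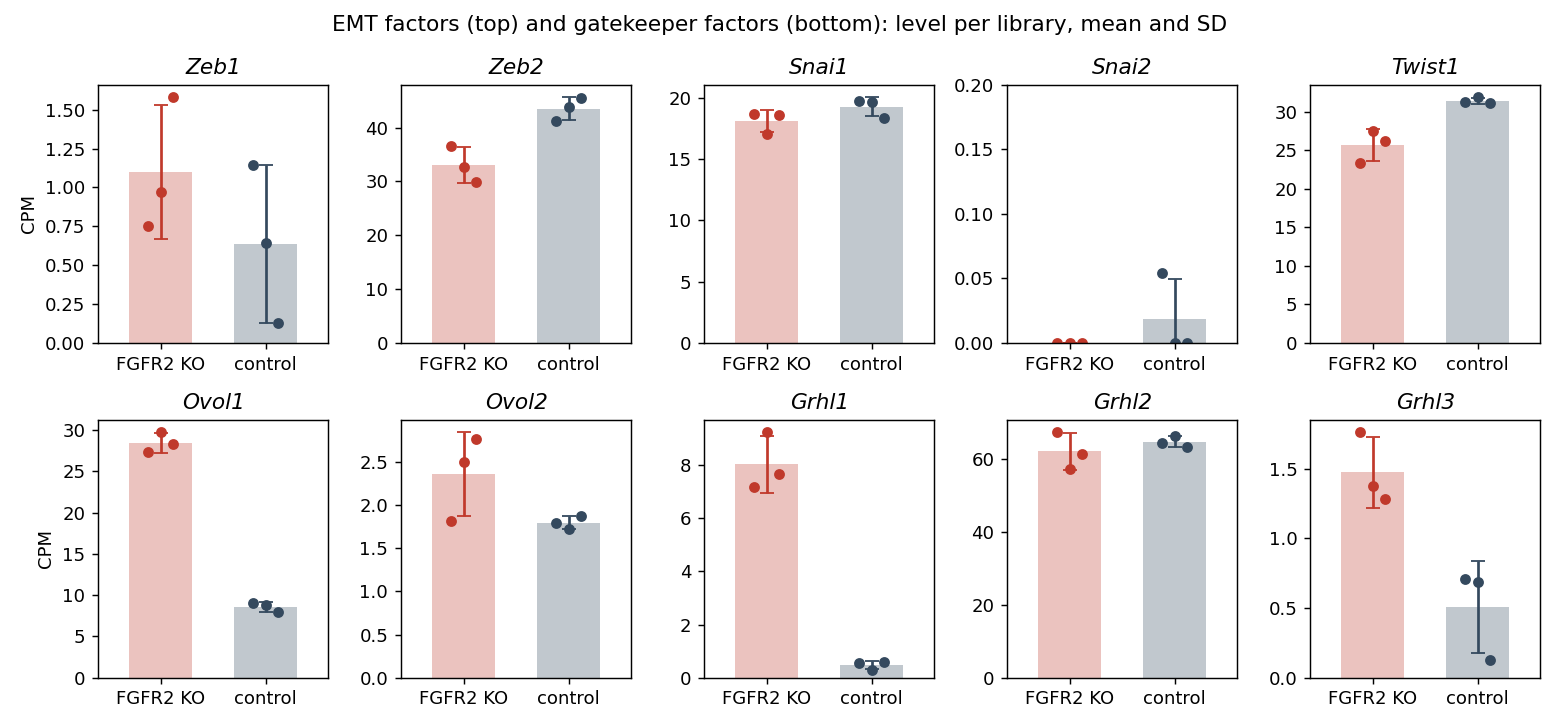
Level of each factor in CPM (vertical axes start at 0 and differ between genes) in the 3 KO libraries (red, left) and the 3 control libraries (dark blue, right). Dots are libraries, bars are means and error bars are SD. The KO libraries of Ovol1, Grhl1 and Grhl3 lie above all control libraries, those of Zeb2 and Twist1 lie below all control libraries, and the groups overlap for Zeb1, Snai1, Ovol2 and Grhl2.

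The grainyhead-like factors bind DNA as dimers and switch on genes of junctions and of the epidermal barrier. Grhl1, known in mouse skin for its control of desmosomal cadherins (chromosome 12, 24572283 to 24617391 on the plus strand, mm10), had 134, 181 and 155 counts in KO replicates 1 to 3 and 10, 6 and 9 counts in control replicates 1 to 3. In CPM these were 7.17, 9.24 and 7.65 in KO and 0.545, 0.295 and 0.581 in control libraries. Every KO library was far above every control library, where the gene was close to absent. This was a 17.1-fold rise (95% interval 11.96 to 24.5) and a log2 fold change of 4.098, with an SE of 0.26 and an edgeR adjusted p of 1.96e-16. Grhl1 had the 30th largest rise of 12158 tested genes.

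Grhl2, the family member best known for keeping breast epithelium from EMT (chromosome 15, 37233036 to 37363569, plus strand), stood at 67.5, 57.5 and 61.5 CPM in KO libraries and at 64.6, 66.5 and 63.4 CPM in control libraries. The groups overlapped, with the highest and the lowest value both in KO libraries. Its log2 fold change was -0.06 (SE 0.056, edgeR adjusted p = 0.356), and the 95% interval ran from 0.885 to 1.04 of the control level, so a fall or rise larger than that is outside the interval. Grhl3, known for its need in neural tube closure and skin barrier formation in the mouse (chromosome 4, 135541888 to 135573630, minus strand), had 33, 27 and 26 counts in KO and 13, 14 and 2 counts in control libraries. In CPM these were 1.77, 1.38 and 1.28 in KO and 0.709, 0.689 and 0.129 in control libraries. All KO libraries were above all control libraries, and control replicate 3 was the lowest by far. Grhl3 rose by 1.46 on the log2 scale (SE 0.40; edgeR adjusted p = 0.0024), or 2.75-fold with an interval of 1.56 to 4.84. Without control replicate 3 it was 1.07 (edgeR adjusted p = 0.0302), and against a minimum fold change of 1.5 the call was lost (edgeR adjusted p = 0.065).

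The Ovol factors are zinc finger repressors that act downstream of Wnt signalling in skin. Ovol1 (chromosome 19, 5549136 to 5560646, minus strand) had 511, 583 and 573 counts in KO libraries and 166, 178 and 123 counts in control libraries. Its CPM were 27.3, 29.8 and 28.3 in KO and 9.05, 8.76 and 7.94 in control libraries, a narrow spread in both groups and no overlap. On the log2 scale Ovol1 rose by 1.72 (SE 0.094; edgeR adjusted p = 4.00e-18), which is 3.30-fold with an interval of 2.89 to 3.77. This was the 161st largest rise among all tested genes. The annotation places an antisense gene and a pseudogene, both on the plus strand, over Ovol1, and antisense genes also lie over Ovol2, Grhl2, Zeb1 and Zeb2. The strand setting of the counting is not given in the sources used here, so reads of such pairs cannot be told apart.

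Ovol2 (chromosome 2, 144305175 to 144332146, minus strand) was low, with 34, 49 and 56 counts in KO and 33, 35 and 29 counts in control libraries. In CPM it had 1.82, 2.50 and 2.77 in KO and 1.80, 1.72 and 1.87 in control libraries. KO replicates 2 and 3 lay above the control libraries and KO replicate 1 among them. Its log2 fold change came to 0.40 (SE 0.26; edgeR adjusted p = 0.193) with an interval of 0.916 to 1.90 times the control level, which holds both no change and a rise close to 1.90-fold.

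Of the Zeb factors, Zeb2 was the more abundant. Zeb2 (chromosome 2, 44983632 to 45117395, minus strand) stood at 36.5, 32.7 and 29.8 CPM in KO libraries and at 41.2, 43.9 and 45.4 CPM in control libraries. Each KO library lay below each control library. Its change on the log2 scale was -0.40 (SE 0.069, edgeR adjusted p = 7.18e-06), which is 0.758 of the control level with an interval of 0.688 to 0.836. Zeb2os, the antisense transcript at the Zeb2 locus, was lower as well, at 1.66, 1.84 and 1.93 CPM in KO and 3.32, 3.15 and 2.90 CPM in control libraries (edgeR adjusted p = 0.0051, log2 fold change -0.79, SE 0.24). It was named after its values were seen, and since the strand setting of the counting is unknown its reads and those of Zeb2 may be partly mixed.

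Zeb1 (chromosome 18, 5591860 to 5775467, plus strand) had only 14, 19 and 32 counts in KO libraries and 21, 13 and 2 counts in control libraries. Its CPM ran from 0.749 to 1.58 in KO and from 0.129 to 1.14 in control libraries, so the groups overlapped. For Zeb1 the log2 fold change was 0.74 (SE 0.44; edgeR adjusted p = 0.154), with an interval of 0.901 to 3.10 of the control level. The estimate moved with single libraries, to 1.41 without control replicate 1, where it passed the test (edgeR adjusted p = 0.0355), to 0.38 without KO replicate 3 and to 0.32 without control replicate 3.

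Snai1, the Snail protein (chromosome 2, 167538195 to 167542814, plus strand), stood at 18.7, 17.1 and 18.6 CPM in KO libraries and at 19.8, 19.7 and 18.4 CPM in control libraries. The groups overlapped. Its difference on the log2 scale was -0.09 (SE 0.088, edgeR adjusted p = 0.388), and the interval of 0.830 to 1.06 of the control level leaves out falls below 0.830. Snail protein is known to be controlled largely through its stability, which transcript counts do not show. Snai2, or Slug, a marker of basal mammary cells (chromosome 16, 14705852 to 14709385, plus strand), had 0 counts in all KO libraries and 1, 0 and 0 counts in control libraries, and was not tested. A count of 0 over the KO libraries allows a level of up to 0.0513 CPM, counting error only.

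Twist1 (chromosome 12, 33957671 to 33959829, plus strand), a factor known from 4T1 cells for its part in metastasis, stood at 23.4, 27.5 and 26.2 CPM in KO libraries and at 31.2, 31.9 and 31.1 CPM in control libraries. The control libraries were nearly identical and all KO libraries lay below them. On the log2 scale Twist1 differed by -0.29 (SE 0.074, edgeR adjusted p = 0.0012), which is 0.819 of the control level with an interval of 0.738 to 0.909. The calls of Zeb2 and Twist1 were both lost against a minimum fold change of 1.5 (edgeR adjusted p = 1 each), a size that their intervals do not reach.

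**Figure D2:**
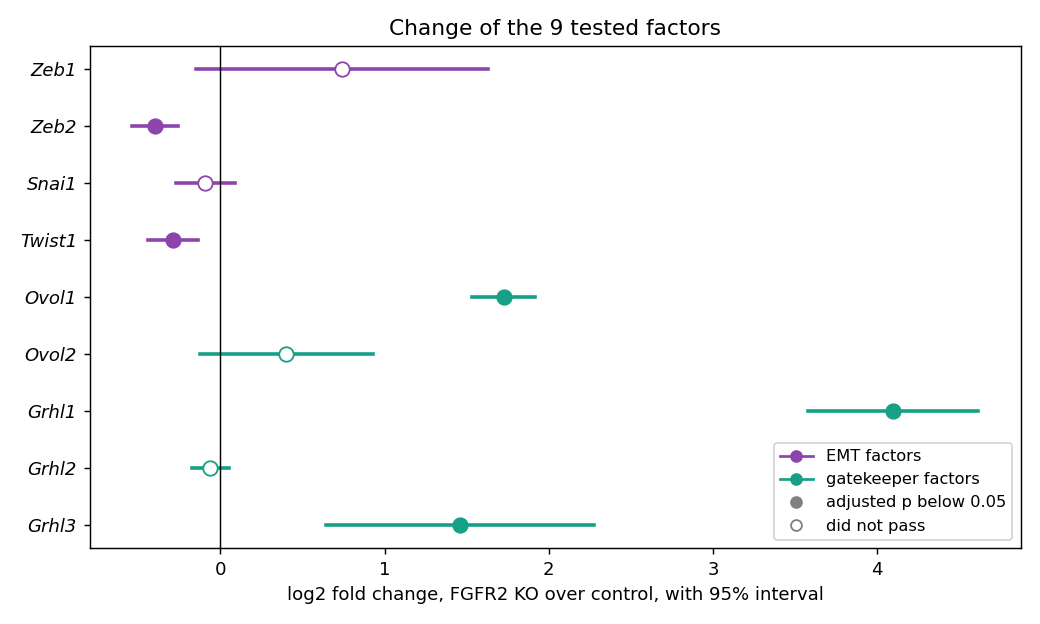
Log2 fold change of each tested factor, KO over control, on the horizontal axis with its 95% interval as a line. Filled points passed the test (adjusted p below 0.05) and open points did not. Grhl1 stands furthest out at 4.098, with Ovol1 at 1.72 and Grhl3 at 1.46, while Zeb2 (-0.40) and Twist1 (-0.29) lie a little below 0.

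Low genes had been removed before the test, and 9 of the 10 factors passed that filter, which asked for 0.524 CPM in at least 3 libraries. Zeb1, Grhl1 and Grhl3 reached that level in 3 KO and 2 control libraries, so they passed only with their KO libraries. For the other 6 that passed, all libraries were above it. Since Grhl1 and Grhl3 needed their KO libraries, the count of gatekeepers that rose is a description. With no filter, Grhl1 (log2 fold change 4.105, edgeR adjusted p = 1.41e-60) and Grhl3 (1.474, edgeR adjusted p = 0.00144) kept their call, and Zeb1 did not pass the test. The KO and control libraries did not overlap for 5 of the 9 tested factors, against 59.5% of all tested genes.

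To compare the factors with each other, CPM were divided by the length of their merged exons in kilobases (GENCODE M21). In KO cells Twist1 was then the most abundant at 15.8 ± 1.31 CPM per kb, followed by Snai1 at 11.2 ± 0.574, Ovol1 at 8.16 ± 0.353 and Grhl2 at 7.22 ± 0.587 CPM per kb (SD, n = 3). In control cells the order was Twist1 at 19.3 ± 0.263, Snai1 at 11.9 ± 0.480, Grhl2 at 7.53 ± 0.181 and Ovol1 at 2.46 ± 0.165 CPM per kb (SD, n = 3). Ovol1 and Grhl2 overlapped in KO libraries, whereas Ovol1 lay well below Grhl2 in control libraries. Zeb2 was at 1.66 ± 0.169 CPM per kb in KO and 2.18 ± 0.107 in control libraries. In KO libraries Zeb2 overlapped with Grhl1 (1.45 ± 0.196 CPM per kb), and Grhl1 overlapped with Ovol2 (1.12 ± 0.231 CPM per kb). In control libraries Zeb2 overlapped with Ovol1, whereas Ovol2 (0.851 ± 0.0351 CPM per kb) stood apart from its neighbours. The lowest levels in KO cells were those of Grhl3 (0.529 ± 0.0914), Zeb1 (0.107 ± 0.0419) and Snai2 (0), each apart from the next. In control cells Grhl3 (0.183 ± 0.118), Grhl1 (0.0855 ± 0.0281), Zeb1 (0.0621 ± 0.0495) and Snai2 (0.00899 ± 0.0156 CPM per kb) overlapped with their neighbours in that order. The choice of length matters for genes with many isoforms: with the longest transcript as length Grhl2 stood second after Twist1, at 12.6 CPM per kb in KO and 13.1 CPM per kb in control libraries.

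Within each library the make-up of the families differed between groups. Grhl1 gave 13.3%, 18.9% and 15.4% of the summed Grhl level per kb in KO replicates 1 to 3 and 1.253%, 0.665% and 1.40% in control replicates 1 to 3. Grhl2 still gave 78.4 ± 2.55% of the family in KO and 96.6 ± 1.27% in control libraries (SD, n = 3). Ovol1 gave 88.0 ± 2.01% of the Ovol level in KO and 74.3 ± 1.97% in control libraries. The summed Grhl level was 9.19 ± 0.500 CPM per kb in KO and 7.79 ± 0.259 in control libraries, and the summed Ovol level 9.28 ± 0.527 in KO and 3.31 ± 0.143 CPM per kb in control libraries, so most of the added gatekeeper transcript was Ovol1.

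Set side by side, the 5 gatekeepers summed to 18.4 to 18.6 CPM per kb in KO and 10.7 to 11.3 CPM per kb in control libraries. The 5 EMT factors summed to 27.8 to 29.2 CPM per kb in KO and 32.8 to 34.0 CPM per kb in control libraries. The ratio of gatekeeper to EMT factor transcript, which is free of the scaling between libraries, was 0.664, 0.636 and 0.629 in KO replicates 1 to 3 and 0.336, 0.334 and 0.326 in control replicates 1 to 3. With the longest transcript as length it was 0.862 ± 0.0242 in KO and 0.484 ± 0.00647 in control libraries (SD, n = 3). EMT factor transcript exceeded gatekeeper transcript in all 6 libraries on both length scales. The ratio of plain CPM with no length was 1.28 to 1.33 in KO and 0.777 to 0.821 in control libraries. In KO libraries the larger side thus depends on the length used, whereas control libraries had more EMT factor transcript under every choice. The ratio was higher in KO than in control libraries under every choice of length. These sums describe the chosen factors and were not tested.

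**Figure D3:**
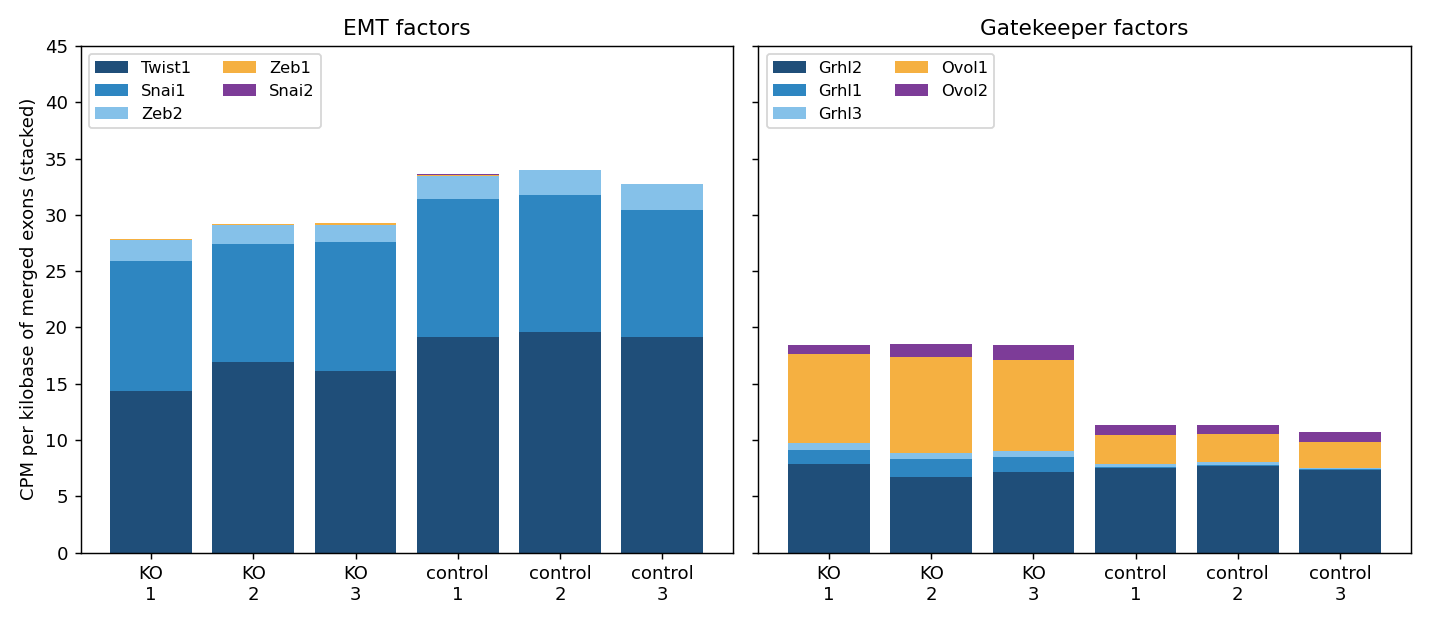
Stacked levels (CPM per kilobase of merged exons) of the EMT factors (left panel) and gatekeeper factors (right panel) in each KO and control library. Twist1 and Snai1 make up most of the EMT factor level in all libraries. On the gatekeeper side Grhl2 is of similar height in all libraries, while the Ovol1 and Grhl1 segments are taller in the 3 KO libraries.

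The relatives of these factors that share their families were mostly silent or low. Of 8, 3 could be tested, and Scrt1 and Scrt2 had 0 counts. Tfcp2l1, a grainyhead-related factor of epithelial ducts, rose to 6.40 ± 0.905 CPM in KO against 2.32 ± 0.498 CPM in control libraries (SD, n = 3). The difference was 1.44 on the log2 scale (SE 0.19; edgeR adjusted p = 6.82e-08). Its relatives Tfcp2 and Ubp1, at 15.9 and 108 CPM in KO and 16.4 and 105 CPM in control libraries, did not pass the test. Snai3 was at 0.480 ± 0.0747 CPM in KO and 0.306 ± 0.120 CPM in control libraries, and Twist2 and Ovol3 had 3 counts or fewer in any library.

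Other transcription factors linked to EMT were split, with 4 of 9 tested higher and 4 lower, against 27.1% and 27.5% of all tested genes. Hmga2, a chromatin protein known to raise Snai1 and Twist1 downstream of TGF beta, fell by 0.73 on the log2 scale to 338 ± 7.76 CPM in KO against 562 ± 9.53 CPM in control libraries (SD, n = 3, edgeR adjusted p = 2.89e-20). Sox4 fell by 0.44 to 651 CPM in KO against 884 CPM in control libraries, and the forkhead factor Foxc2 fell by 0.79 to 19.4 CPM in KO against 33.4 CPM in control libraries. Foxq1, another forkhead factor, rose by 1.80 to 9.96 ± 1.99 CPM in KO against 2.86 ± 0.450 CPM in control libraries. Prrx1, a homeobox factor of mesenchyme, averaged 0.0848 CPM in KO and 0.0397 CPM in control libraries and was not tested.

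Twist1 binds DNA as a dimer with E proteins, and Id proteins take E proteins out of such dimers. Of 9 partners and inhibitors 3 rose and 2 fell, against 27.1% and 27.5% of all tested genes. The largest differences were those of the Id genes. Id1 was at 181 ± 9.87 CPM in KO and 26.9 ± 0.592 CPM in control libraries (SD, n = 3, log2 fold change 2.75, SE 0.053). Id2 and Id3 rose by 1.37 and 1.36 on the log2 scale, whereas Id4 fell by 0.54. The E protein gene Tcf4 fell by 0.19, while Tcf3 (-0.03, SE 0.037, edgeR adjusted p = 0.476) and Tcf12 (-0.07, SE 0.046, edgeR adjusted p = 0.176) did not pass the test.

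The corepressors through which Snai and Zeb proteins silence genes differed by small amounts. Of 12 tested, 5 rose and 3 fell, against 27.1% and 27.5% of all tested genes. The median log2 fold change was 0.08, against -0.01 over all tested genes. The LIM protein gene Ajuba, whose product bridges Snail to its cofactors, rose by 0.74 on the log2 scale to 110 ± 5.31 CPM in KO against 65.5 ± 0.459 CPM in control libraries (SD, n = 3, edgeR adjusted p = 5.63e-16). Its relative Limd1 rose by 0.19, Ctbp1, the corepressor of Zeb proteins, rose by 0.20, and the lysyl oxidase family member Loxl3 fell by 0.53. Genes for the turnover of Snai and Twist proteins were split, with 4 of 13 up and 4 down, against the same 27.1% and 27.5%. The ubiquitin ligase genes Fbxl5 and Btrc fell by 0.38 and 0.37 on the log2 scale, and Gsk3b, the kinase that marks Snail for Btrc, rose by 0.24, as did Trp53 (0.23).

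Epithelial genes that Snai and Zeb factors are known to repress showed no common direction. Of 22 tested, 6 rose and 8 fell, against 27.1% and 27.5% of all tested genes, with a median log2 fold change of 0.02. Cdh1, the classic target, was at 390 ± 10.9 CPM in KO and 327 ± 7.84 CPM in control libraries (SD, n = 3; edgeR adjusted p = 1.48e-07, log2 fold change 0.25, SE 0.035). The desmosomal gene Dsp rose by 0.48 on the log2 scale and the splicing factor Esrp1 by 0.13 (edgeR adjusted p = 0.0334), whereas Epcam fell by 0.42 to 288 ± 7.18 CPM in KO against 386 ± 8.56 CPM in control libraries. The claudin Cldn4 fell by 0.37 and the keratin Krt18 by 0.61.

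Reported Grhl targets, a list that shares 5 genes with the epithelial one, had 7 of 16 up and 3 down. Over all tested genes 27.1% rose and 27.5% fell, and the list's median log2 fold change was 0.07. Lad1, an anchoring filament gene, rose by 0.36 on the log2 scale to 446 ± 5.42 CPM in KO against 348 ± 8.72 CPM in control libraries (SD, n = 3), while periplakin (Ppl) fell by 0.65 to 117 ± 6.23 CPM in KO against 183 ± 2.52 CPM in control libraries. Of the epidermal genes linked to Ovol factors, 6 of 12 had 0 counts in all libraries, among them Krt5, Krt1, Lor, Flg and Ivl. Of the other 6, 4 rose and 1 fell, against 27.1% and 27.5% of all tested genes. Trp63, the master factor of basal epithelia, is among the 4 but passed the filter on low counts through its KO libraries alone, so its call is a description. It had 10, 17 and 16 counts in KO and 2, 2 and 1 counts in control libraries. Krt14 was at 957 ± 18.0 CPM in KO and 60.2 ± 1.08 CPM in control libraries (SD, n = 3, log2 fold change 3.99, SE 0.039). On the log2 scale Id2, also on this list, rose by 1.37 and Klf4 by 0.20. Myc, which Ovol1 is known to repress in mouse epidermis, fell by 0.16 and was named after its values were seen. The part of Ovol1 in these differences was not tested.

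Of 11 tested mesenchymal genes 9 rose and 1 fell, against 27.1% and 27.5% of all tested genes. The median log2 fold change was 0.82, and 0.63 without Acta2, where 8 of 10 rose and 1 fell. A further 10 listed genes were too low to test, and Cdh2 (N-cadherin), the usual sign of a full EMT, had 0 counts in all 6 libraries. Of the tested genes that rose, periostin (Postn), a matrix protein, was at 33.1 ± 1.252 CPM in KO and 1.59 ± 0.560 CPM in control libraries (SD, n = 3, log2 fold change 4.41). Sparc rose by 1.01 on the log2 scale, and fibronectin (Fn1) by 0.13 to 2319 CPM in KO against 2116 CPM in control libraries. Vimentin (Vim) fell by 0.31 to 1963 ± 58.1 CPM in KO against 2433 ± 22.0 CPM in control libraries. Acta2 had 51 counts over the KO libraries and 0 over the control libraries, at least 15.7-fold higher when the control group is set to 3 counts in all. The list's median of 0.82 cannot move at that bound, since Acta2 lies above the median either way. Acta2 passed the filter on low counts through its KO libraries alone, and Col1a1 reached it in 3 KO libraries and 1 control library, so the count of genes that rose is a description. Among the fibroblast markers, Dcn and Pdgfrb (itself on the mesenchymal list) were higher in each KO library than in any control library, at the low counts given above. Pdgfra, the only fibroblast marker tested, did not pass the test (log2 fold change 0.12, edgeR adjusted p = 0.143), and Lum, Thy1 and Col3a1 were at 0. The part of such markers in the list's values was not tested.

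**Figure D4:**
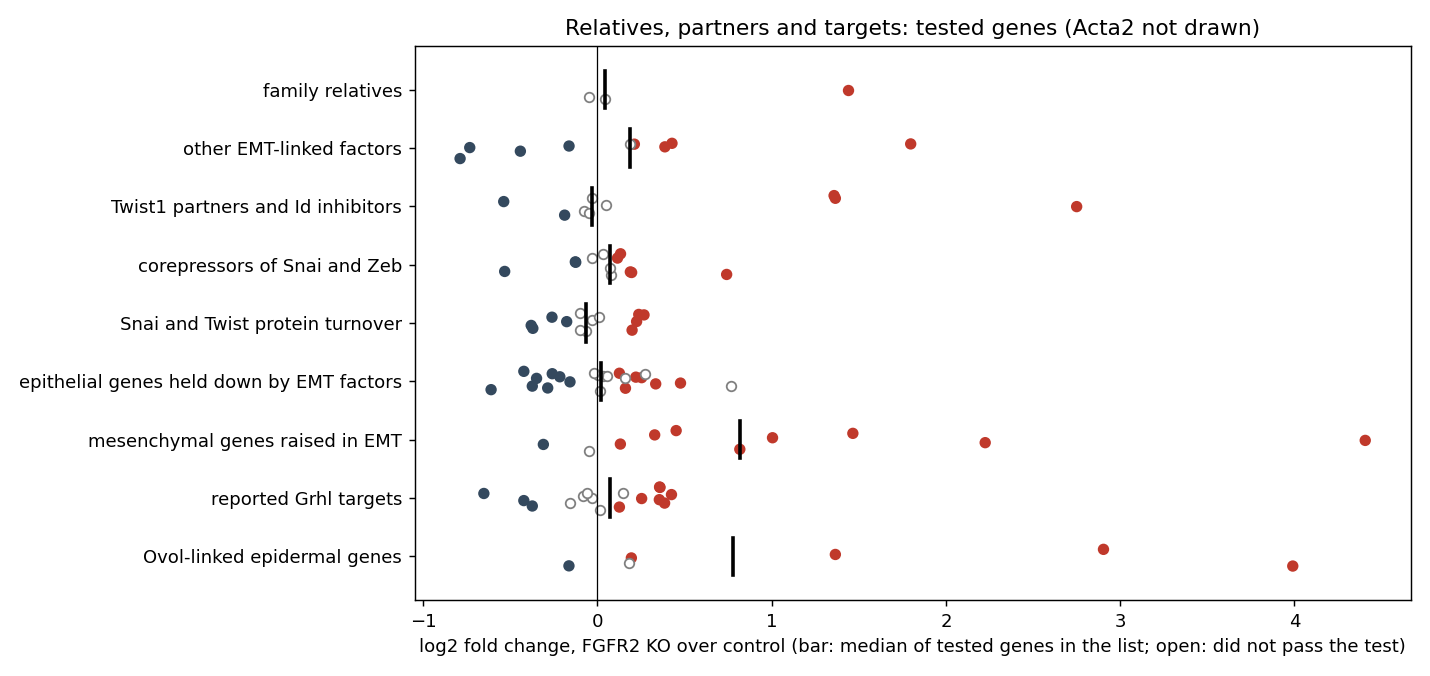
Log2 fold change (KO over control, horizontal axis) of the tested genes of 9 lists, 1 point per gene with Acta2 left out, red for genes that rose, dark for genes that fell and open for genes that did not pass the test. Black bars are the medians of all tested genes of a list, Acta2 included. Points lie on both sides of 0 in all lists. The medians of the mesenchymal and the Ovol-linked lists are 0.82 (0.63 for the genes drawn) and 0.78, and those of the other lists lie within 0.2 of 0.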

How the data were processed

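Poly(A) RNA-seq of 3 FGFR2 KO and 3 control libraries was analysed from 1 table. The deposited values are raw read counts per gene, 1 column per library; the submitters' processing notes name FastQC 0.11.9, STAR 2.7.9a, featureCounts and R 4.1.1, with the builds hg38 and mm10 and no roles. The sources used here name no annotation, strand setting or treatment of shared reads. Of 31017 gene symbols 98.2% occur in GENCODE M21 (mm10), from which positions and exon lengths were taken.

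Counts were tested with edgeR 4.0.16 in R 4.3.3 (filterByExpr defaults, TMM scaling, quasi-likelihood F-test, group as the only term) over 12158 genes, with Benjamini-Hochberg adjusted p below 0.05 as the threshold. The SE is the size of the log2 fold change over the root of its F value, intervals are 95%, and CPM were computed from the counts. The fit was tested on simulated data. DESeq2 1.42.0 and limma 3.58.1 (voom) were alternatives.

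The factors and the gene lists (from textbook knowledge) were chosen with earlier results of these data known. Besides the 10 factors, the 4 tested genes with the smallest adjusted p in each of 9 lists and Cdh1, Esrp1, Epcam, Vim, Cdh2, Fn1, Id1 and Fgfr2 were named by rule; Tcf3, Tcf4, Tcf12, Prrx1, Snai3, Myc, Acta2 and others beyond it were named after their values were seen. A gene that the rule names is not reported here. Every replicate pair differed by more than counting noise (chi-square per degree of freedom 2.28 to 4.69 within groups).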

Additional observations from a re-analysis of the deposited data

How the results depend on the processing

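Over 15 alternatives, no direction of a factor reversed, and Ovol1 (log2 fold change 1.68 to 1.76) and Grhl1 (3.82 to 4.26) kept their call in all of them. Snai1, Ovol2 and Grhl2 passed the test in 0 of them. Against a minimum fold change of 1.5 the edgeR test no longer called Zeb2 (-0.40), Twist1 (-0.29) or Grhl3 (1.46), the number of EMT factors that fell was 0, and 907 genes passed (402 up, 505 down) in place of 6639 (3300 up, 3339 down). Under that setting 3 of the other EMT-linked factors passed, 3 of the Twist1 partners and Id inhibitors, 1 corepressor, 0 turnover genes, 0 epithelial genes, 4 mesenchymal genes, 0 reported Grhl targets and 3 Ovol-linked genes. Leaving out 1 library at a time gave Zeb1 0.32 to 1.41, the last without control replicate 1 and past the threshold, so that 0 to 1 EMT factors rose. The filter of 1 CPM in 3 libraries removed Zeb1, and Snai2 was tested only with no filter (-1.91, edgeR adjusted p = 0.558).

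No library scaling moved the median of all genes by more than 0.03 on the log2 scale. With the longest transcript as length, levels in CPM per kb were 0.190 (Zeb1), 3.62 (Zeb2), 9.58 (Ovol1), 1.53 (Ovol2), 2.31 (Grhl1) and 12.6 (Grhl2) in KO, and 4.77 (Zeb2), 2.89 (Ovol1), 1.16 (Ovol2), 0.137 (Grhl1) and 13.1 (Grhl2) in control libraries. Replicates that share a number did not deviate together (correlations -0.0294, -0.00317 and -0.0642). With 3 libraries per group, this cannot settle whether they shared a culture or a batch. With the replicate block 6443 genes were called, 3206 up and 3237 down, and all factors kept their call. Low counts limit Zeb1, Snai2, Ovol2, Grhl3 and the control level of Grhl1.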
